A study of Mus musculus with 12 samples.

Results

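The small leucine-rich proteoglycans (SLRPs) are secreted proteins of the extracellular matrix. Of their genes, 9, *Dcn* (decorin), *Bgn* (biglycan), *Aspn* (asporin), *Fmod* (fibromodulin), *Lum* (lumican), *Prelp*, *Kera* (keratocan), *Omd* (osteomodulin) and *Ogn* (osteoglycin), were followed by RNA sequencing of the tibialis anterior (TA), a muscle at the front of the lower leg. They were chosen by name, matched by symbol, and are 9 of the 55450 genes in the count table. All 9 passed the filter on low counts, which 19276 genes passed. The muscles came from wild-type (WT) mice of the 129Pas background at the embryonic age E18.5 and at 2 and 7 weeks (wks) of age, with 4 mice per age and no treatment or altered allele named in the labels. The sex of the animals is not given. Each library held the RNA of all cell types in pieces of muscle, so fewer cells of a type and less RNA per cell cannot be told apart in any value below.

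SLRPs have a small core built of leucine-rich repeats, and many carry chondroitin, dermatan or keratan sulfate chains. They bind collagen fibrils and influence how thick fibrils become and how they are spaced. Decorin and biglycan also bind TGF-β, a growth factor that drives matrix production. In muscle and tendon these genes are known to be expressed mainly by fibroblasts and tendon cells and little by the muscle fibre itself. Class I holds decorin, biglycan and asporin. Class II holds fibromodulin, lumican, PRELP, keratocan and osteomodulin, several of which carry keratan sulfate, and class III holds osteoglycin.

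The libraries held 63018968 to 123449246 counts each. Levels are given as CPM, the count of a gene relative to the library size after scaling by the trimmed mean of M-values (TMM), a method that assumes most genes keep their level. All 6 muscle fibre markers rose from E18.5 to 2 wks, and their summed level was between 10835 and 19387 CPM in the E18.5 libraries and between 96316 and 120537 CPM in those of 2 wks. Scaling to total counts instead lowered the log2 change of the median gene by 0.93 in the interval before 2 wks and by 0.35 in the later one. A gene is called changed at an adjusted p under 0.05 in edgeR's quasi-likelihood test, and all log2 changes are the later age over the earlier one.

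Of the 9 genes, 8 lie beside another SLRP gene, in 3 clusters (positions on GRCm38.p6). On chromosome 10 *Dcn* (97479500 to 97518163), *Lum* (97565501 to 97572703) and *Kera* (97606962 to 97613688) follow each other on the plus strand, with 0 protein-coding genes between them. On chromosome 13 *Aspn* (49544443 to 49567565), *Omd* (49582462 to 49592612) and *Ogn* (49608015 to 49624501) follow each other on the plus strand. *Cenpp*, on the opposite strand, spans this cluster and shares exonic bases with *Aspn* and *Ogn*, and its 4091 counts over all 12 libraries are few beside theirs. On chromosome 1 *Prelp* (133910304 to 133930102, minus strand) lies 107151 bp from *Fmod* (134037254 to 134048280, plus strand). *Bgn* stands apart from the others on chromosome X (73483601 to 73495936, plus strand).

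The members also differed in base composition. The canonical transcripts of the chromosome 13 genes have the lowest GC content, from 34.4% (*Aspn*) to 35.4% (*Ogn*). Those of chromosome 10 lie between 39.6% (*Dcn*) and 41.9% (*Lum*), and *Prelp*, *Bgn* and *Fmod* reach 51.9%, 52.5% and 53.7%. Fits with and without a GC trend per library are therefore set side by side where they differ.

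The promoters of the 3 chromosome 13 neighbours are shown because *Aspn* and *Ogn* both fell after E18.5 while *Omd*, which lies between them, was not called, and that of *Bgn* because it stands outside the clusters. Each is the 250 bases before the RefSeq start of the gene on the plus strand, 5′ to 3′, at chr13:49544193-49544442 (*Aspn*), chr13:49582212-49582461 (*Omd*), chr13:49607765-49608014 (*Ogn*) and chrX:73483351-73483600 (*Bgn*) of GRCm38.p6. Capitals mark matches on either strand to the TATA box (letters TATAAA), the E-box (letters CANNTG), the CAGA box (letters CAGAC) or the AP-1 site (letters TGANTCA).
Aspn: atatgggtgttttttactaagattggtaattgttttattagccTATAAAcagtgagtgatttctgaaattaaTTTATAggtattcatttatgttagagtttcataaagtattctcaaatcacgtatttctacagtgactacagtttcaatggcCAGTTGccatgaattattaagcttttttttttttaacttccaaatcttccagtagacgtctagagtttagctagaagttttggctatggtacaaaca
Omd: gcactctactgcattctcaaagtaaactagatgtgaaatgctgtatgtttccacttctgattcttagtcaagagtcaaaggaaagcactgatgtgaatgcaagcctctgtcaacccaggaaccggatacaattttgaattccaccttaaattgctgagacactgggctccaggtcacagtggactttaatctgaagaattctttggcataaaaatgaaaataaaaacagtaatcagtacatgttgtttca
Ogn: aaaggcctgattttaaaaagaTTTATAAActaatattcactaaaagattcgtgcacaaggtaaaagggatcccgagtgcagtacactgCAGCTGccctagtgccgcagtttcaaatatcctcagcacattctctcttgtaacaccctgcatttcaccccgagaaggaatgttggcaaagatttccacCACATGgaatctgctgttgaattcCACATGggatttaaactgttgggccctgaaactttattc
Bgn: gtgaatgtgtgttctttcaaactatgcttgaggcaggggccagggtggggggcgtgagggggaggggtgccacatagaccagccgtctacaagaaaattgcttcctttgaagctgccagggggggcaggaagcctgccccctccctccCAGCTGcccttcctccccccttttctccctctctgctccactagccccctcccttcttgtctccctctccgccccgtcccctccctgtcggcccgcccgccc

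*Aspn* had TATAAA once on each strand and 1 E-box. *Ogn* had overlapping TATAAA matches on both strands, which share the letters TTTATAAA, and 3 E-boxes. The TATAAA matches of both genes lay between 173 and 229 bases before the start. *Omd* had 0 matches to all 4 motifs, and *Bgn* had 1 E-box in a window of 64.4% GC against 30.0% in *Aspn*, 38.4% in *Omd* and 42.0% in *Ogn*. The TATA box letters were found in 12.4% of 32851 RefSeq promoter windows of the same length, those of the E-box in 66.2%, of the CAGA box in 42.2% and of the AP-1 site in 6.75%. Of the windows not shown, that of *Kera*, which also fell, had 0 matches to all 4 motifs. Among the genes not called, *Fmod* had 1 E-box and 2 CAGA boxes, and *Prelp* had 1 CAGA box. No window was available for *Dcn* and *Lum*. All these matches describe the letters only.

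Divided by the length of the canonical transcript, levels can be compared between genes. At E18.5 *Bgn* (162 CPM per kb), *Aspn* (138), *Lum* (123) and *Dcn* (106) led, followed by *Ogn* (52.8), *Kera* (25.4), *Fmod* (18.8), *Prelp* (8.51) and *Omd* (0.341). The ranges of neighbours in this order overlapped everywhere except between *Prelp* and *Omd*. Within a library of E18.5, *Lum* was above *Dcn*, *Dcn* above *Ogn* and *Ogn* above *Kera* in all 4. *Bgn* over *Aspn*, *Aspn* over *Lum* and *Kera* over *Fmod* held in 2 libraries each, and *Fmod* over *Prelp* in 3. At 7 wks the order was *Dcn* (69.0 CPM per kb), *Bgn* (59.6), *Fmod* (25.0), *Lum* (20.04), *Aspn* (15.9), *Prelp* (10.3), *Ogn* (7.27), *Kera* (5.40) and *Omd* (0.454), and only *Kera* and *Omd* had libraries that did not overlap. Within a library of 7 wks, *Bgn* was above *Fmod*, *Aspn* above *Prelp*, *Prelp* above *Ogn* and *Ogn* above *Kera* in all 4. *Dcn* over *Bgn* and *Lum* over *Aspn* held in 3 libraries each, and *Fmod* over *Lum* in 2. *Omd* was the lowest at both ages. With the union of all exons as length, *Aspn* was first at E18.5 with 112 CPM per kb, and its libraries did not overlap those of *Bgn* with 58.2.

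The 9 levels per kb summed to 635 ± 146 at E18.5, 271 ± 24.6 at 2 wks, then 213 ± 104 CPM per kb at 7 wks (SD, n = 4). *Dcn* made up 16.9% ± 1.87 of that sum at E18.5, 23.2% ± 3.55 at 2 wks, then 32.7% ± 1.22 at 7 wks. The share of *Aspn* went from 21.7% ± 4.25 to 9.81% ± 2.89 and 8.04% ± 2.33, and that of *Lum* from 19.4% ± 1.33 to 13.6% ± 2.33 and 8.99% ± 1.65. *Fmod* had shares of 2.82% ± 1.58, 9.25% ± 6.36 and 10.5% ± 4.15, in that order of age. *Bgn* had its largest share at 2 wks, 36.5% ± 2.76, against 25.9% ± 4.82 and 28.8% ± 2.99 at the ages on either side. These shares were not tested.

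**Figure D1:**
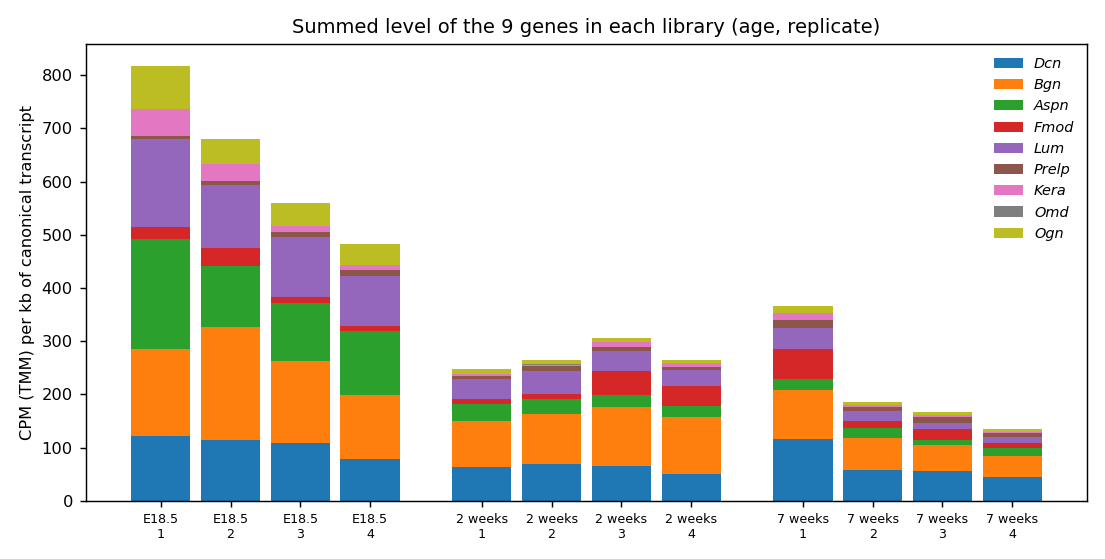
Level of the 9 genes per library, in CPM (TMM) per kb of canonical transcript, stacked by gene and grouped by age with the replicate number below. The E18.5 stacks are the tallest of the 3 ages, *Aspn*, *Lum* and *Ogn* thin out after E18.5, and replicate 1 is the tallest stack at E18.5 and at 7 wks.

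From E18.5 to 2 wks 6 of the 9 genes fell and 0 rose. *Ogn*, *Aspn* and *Kera* fell to 0.147, 0.189 and 0.198 of their E18.5 level, *Lum* to 0.298, *Dcn* to 0.588 and *Bgn* to 0.609. *Fmod*, *Prelp* and *Omd* did not pass the test. Over all 19276 genes 65.7% were called in either direction and 34.2% were called lower. Of all calls 47.9% were higher, against 17.6% with total counts. Under that scaling 7 of the 9 genes were lower and 0 higher, where 11923 of all 19276 genes were lower and 2550 higher. With the GC trend removed *Dcn* lost its call, *Omd* was called higher, and the other 5 falls kept their call. The median log2 change was -0.77 over the 9 genes and -0.09 over all genes tested. For each of the 6 genes, every library of 2 wks was below every library of E18.5, an absence of overlap in the lower direction that 32.4% of all genes showed.

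Decorin, the class I member that binds type I collagen and TGF-β, had the most counts of the 9 at every age. *Dcn* measured 748, 696, 666 and 483 CPM in the 4 libraries of E18.5, 392, 424, 403 and 305 at 2 wks, then 711, 357, 339 and 278 at 7 wks. The first 2 ages did not overlap, while replicate 1 of 7 wks reached the E18.5 range and the other 3 libraries of that age lay within or below the range of 2 wks. The log2 change to 2 wks was -0.77 (SE 0.26, adjusted p = 0.0194 by edgeR's quasi-likelihood test), and from 2 to 7 wks it was 0.14 (SE 0.26, adjusted p = 0.717). With the GC trend of each library removed the first change was -0.05 (adjusted p = 0.854), and without replicate 4 of 2 wks it was -0.66 (adjusted p = 0.0619), so this call rests on how the libraries were treated.

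Biglycan is the nearest relative of decorin and usually carries a pair of chondroitin or dermatan sulfate chains. *Bgn* stood at 392, 514, 374 and 291 CPM at E18.5, at 206, 225, 266 and 260 at 2 wks, then at 221, 145, 117 and 94.6 at 7 wks. Its libraries stepped down at both intervals, and only replicate 1 of 7 wks exceeded a library of 2 wks. It fell by 0.72 on the log2 scale before 2 wks (SE 0.24, adjusted p = 0.0188, edgeR) and by 0.73 after (SE 0.24, adjusted p = 0.0394). Leaving out replicate 2 of E18.5 gave -0.56 (adjusted p = 0.0605) and leaving out replicate 1 of 2 wks gave -0.62 (adjusted p = 0.0599) for the first interval. With the GC trend removed that change was -0.85 (adjusted p = 0.00774).

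*Aspn* encodes asporin, a class I core protein that usually carries no sulfated chain and binds collagen and TGF-β. Its levels were 493, 270, 258 and 286 CPM at E18.5, 79.0, 67.3, 51.7 and 49.5 at 2 wks, then 50.6, 41.6, 24.9 and 33.7 at 7 wks. Replicate 1 of E18.5 stood far above the other 3, yet even the lowest of these was over every later library. The log2 change to 2 wks was -2.40 (SE 0.27, adjusted p = 5.42e-06, edgeR), and -1.47 with the GC trend removed (adjusted p = 2.82e-06). From 2 to 7 wks it was -0.72 (SE 0.26, adjusted p = 0.0527), and it passed the threshold without replicate 1 of 7 wks (-0.89, adjusted p = 0.0304).

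**Figure D2:**
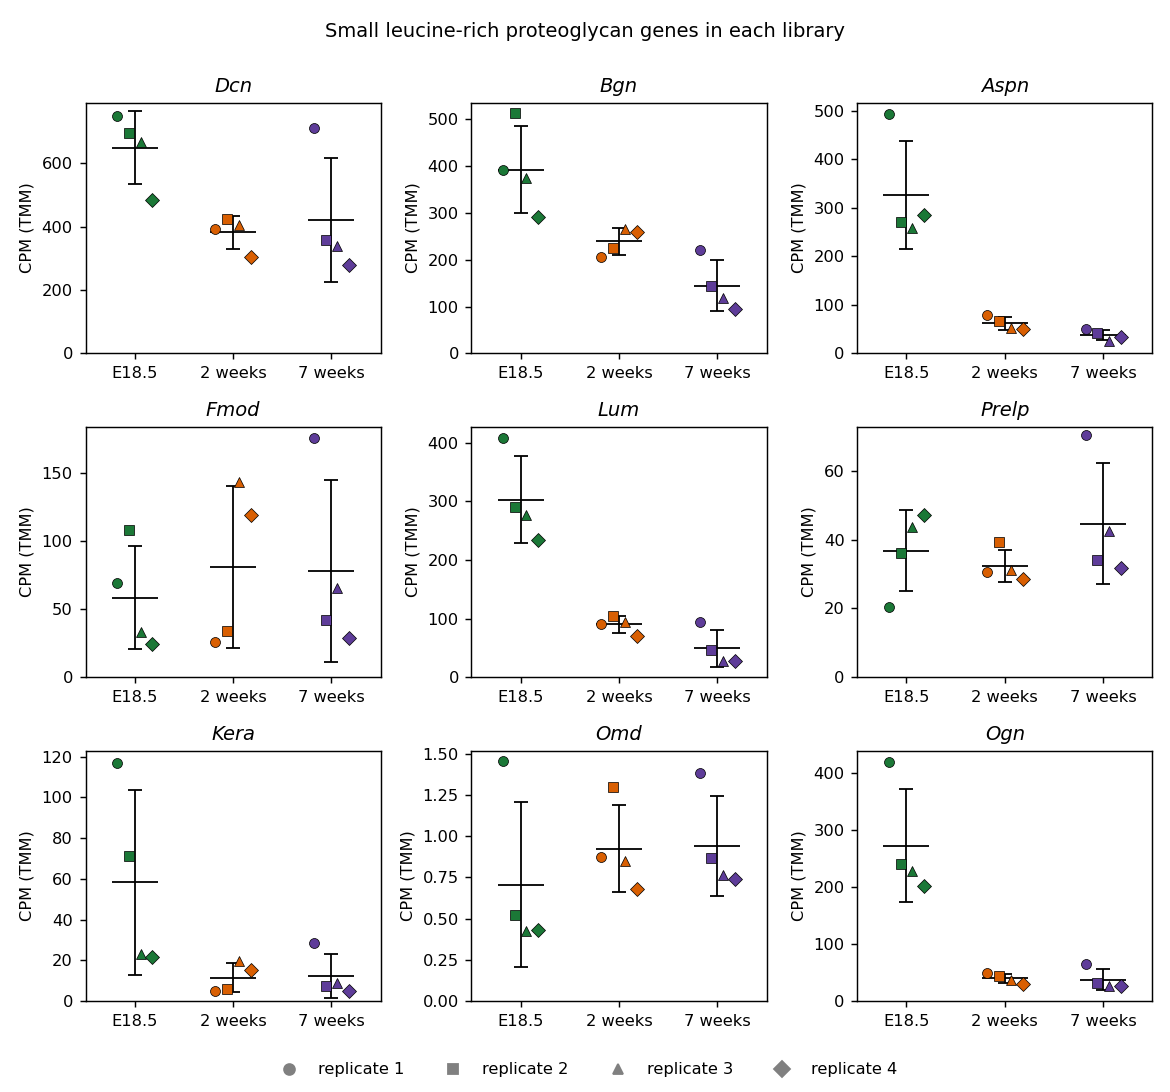
CPM (TMM) of each gene in each library by age, on linear axes that start at 0. Symbols are replicates, and the bars are the mean and SD of 4 libraries. *Aspn*, *Lum* and *Ogn* drop after E18.5 with no overlap, *Fmod* spans 26.2 to 144 CPM within 2 wks alone, and replicate 1 of 7 wks is the highest of its age in every panel.

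*Lum*, the class II gene of lumican, a keratan sulfate proteoglycan that orders collagen fibrils, measured 408, 291, 277 and 234 CPM at E18.5. It measured 91.5, 104, 93.9 and 71.2 at 2 wks, then 95.1, 45.9, 28.2 and 27.9 at 7 wks. The ages separated except for replicate 1 of 7 wks, which matched the libraries of 2 wks. The log2 change was -1.75 from E18.5 to 2 wks (SE 0.34, adjusted p = 0.000514, edgeR) and -0.87 from 2 to 7 wks (SE 0.34, adjusted p = 0.0681). Without replicate 1 of 7 wks the second was -1.41 (adjusted p = 0.00161), and with the GC trend removed the first was -1.07 (adjusted p = 0.00368).

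Keratocan, best known as a keratan sulfate proteoglycan of the cornea, is also made by tendon cells. *Kera* measured 117, 71.3, 23.4 and 21.6 CPM at E18.5, 5.05, 6.02, 19.8 and 15.4 at 2 wks, then 28.4, 7.53, 8.76 and 4.85 at 7 wks. Within an age it spread over several-fold, and replicates 3 and 4 of 2 wks came close to replicates 3 and 4 of E18.5. It fell by 2.33 on the log2 scale to 2 wks (SE 0.66, adjusted p = 0.00697, edgeR), and the change was -1.56 with the GC trend removed (adjusted p = 0.0362).

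Fibromodulin, a class II collagen-binding proteoglycan abundant in tendon and cartilage, was spread as widely. *Fmod* measured 69.0, 108, 33.0 and 24.4 CPM at E18.5, 26.2, 33.9, 144 and 119 at 2 wks, then 176, 42.4, 65.3 and 28.7 at 7 wks. High and low libraries occurred at every age. The log2 change of 0.46 to 2 wks had an interval from -0.92 to 1.85 (95%, adjusted p = 0.541, edgeR), which spans 0.

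*Prelp* encodes a class II protein with a basic end that binds heparan sulfate and anchors basement membranes to connective tissue. It measured 20.4, 36.0, 43.5 and 47.2 CPM at E18.5, 30.4, 39.2, 31.2 and 28.4 at 2 wks, then 70.2, 34.0, 42.6 and 31.8 at 7 wks. The ages overlapped, and replicate 1 of E18.5, the highest library of that age for *Dcn*, *Aspn*, *Lum*, *Kera*, *Omd* and *Ogn*, was the lowest here. The log2 changes were -0.19 (95% interval -0.77 to 0.40, adjusted p = 0.562, edgeR) and 0.47 (-0.12 to 1.05, adjusted p = 0.223) in the 2 intervals. With scaling to total counts the first became -1.12 (adjusted p = 0.00292), where the median gene was at -1.02 under the same scaling.

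Osteomodulin, a class II keratan sulfate proteoglycan of bone, was the least abundant of the 9. *Omd* measured 1.46, 0.521, 0.424 and 0.429 CPM at E18.5, 0.872, 1.30, 0.849 and 0.679 at 2 wks, then 1.38, 0.870, 0.766 and 0.742 at 7 wks. Replicate 1 of E18.5 was above every other library, and the other 3 were below every later one. The log2 change to 2 wks was 0.40 (95% interval -0.47 to 1.26, adjusted p = 0.402, edgeR). Without replicate 1 of E18.5 it was 1.01 (adjusted p = 0.0115), with the GC trend removed it was 1.40 (adjusted p = 0.00105), and with total counts it was -0.50 (adjusted p = 0.275), so its direction depends on the scaling.

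Osteoglycin, the class III member and also called mimecan, showed the largest fall of the 9 in the first interval. *Ogn* measured 420, 241, 229 and 203 CPM at E18.5, 49.6, 43.9, 36.9 and 30.7 at 2 wks, then 65.3, 32.5, 26.8 and 25.9 at 7 wks. Both later ages lay far below E18.5 and overlapped each other. The log2 change to 2 wks was -2.76 (SE 0.32, adjusted p = 7.98e-06, edgeR) and -1.87 with the GC trend removed (adjusted p = 8.05e-06), and that from 2 to 7 wks was -0.10 (SE 0.30, adjusted p = 0.84).

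From 2 to 7 wks 1 of the 9 genes, *Bgn*, was called and was lower, where 27.5% of all genes were called in either direction and 13.9% were lower. Of all calls in this interval 49.3% were higher, against 15.0% with total counts and 36.7% with upper-quartile scaling. The median log2 change was -0.05 over the 9 genes and -0.03 over all genes tested. *Bgn* lost its call in 7 of the 12 fits that each left out 1 library, namely without any 1 library of 2 wks or without replicate 2, 3 or 4 of 7 wks. *Aspn* and *Lum* lay just outside the threshold, and both passed it with DESeq2 (adjusted p = 0.0325 and 0.0381). Over the whole span from E18.5 to 7 wks the same 6 genes as in the first interval were lower and 0 were higher, where 71.4% of all genes were called and 37.1% were lower, with 48.1% of all calls higher against 14.7% with total counts. *Aspn* changed by -3.12 (SE 0.28), *Ogn* by -2.86 (SE 0.33), *Lum* by -2.62 (SE 0.35), *Kera* by -2.24 (SE 0.66), *Bgn* by -1.44 (SE 0.25) and *Dcn* by -0.62 (SE 0.26) on the log2 scale. The *Dcn* value (adjusted p = 0.0459, edgeR) was -0.19 with the GC trend removed (adjusted p = 0.493), and it lost its call in 10 of the 12 fits that left out 1 library, all but those without replicate 4 of E18.5 or replicate 1 of 7 wks.

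Whether the change before 2 wks differed from that after 2 wks was tested as the difference of the 2 log2 changes. It was called for *Ogn* (-2.67, SE 0.56, adjusted p = 0.00283, edgeR) and *Aspn* (-1.69, SE 0.46, adjusted p = 0.0117), both with the larger fall before 2 wks. Among all genes 38.4% were called in this comparison and 16.8% had a negative difference, and the share of calls with a positive one, 56.3%, was 27.6% with total counts. *Aspn* lost the call with the GC trend removed (-0.41, adjusted p = 0.252). For *Bgn* the difference was 0.01 (95% interval -0.89 to 0.91), and for *Lum* and *Kera* it was -0.87 and -2.43 with adjusted p = 0.253 and 0.113. The 3 comparisons share libraries, since the 2 wks group enters both intervals.

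**Figure D3:**
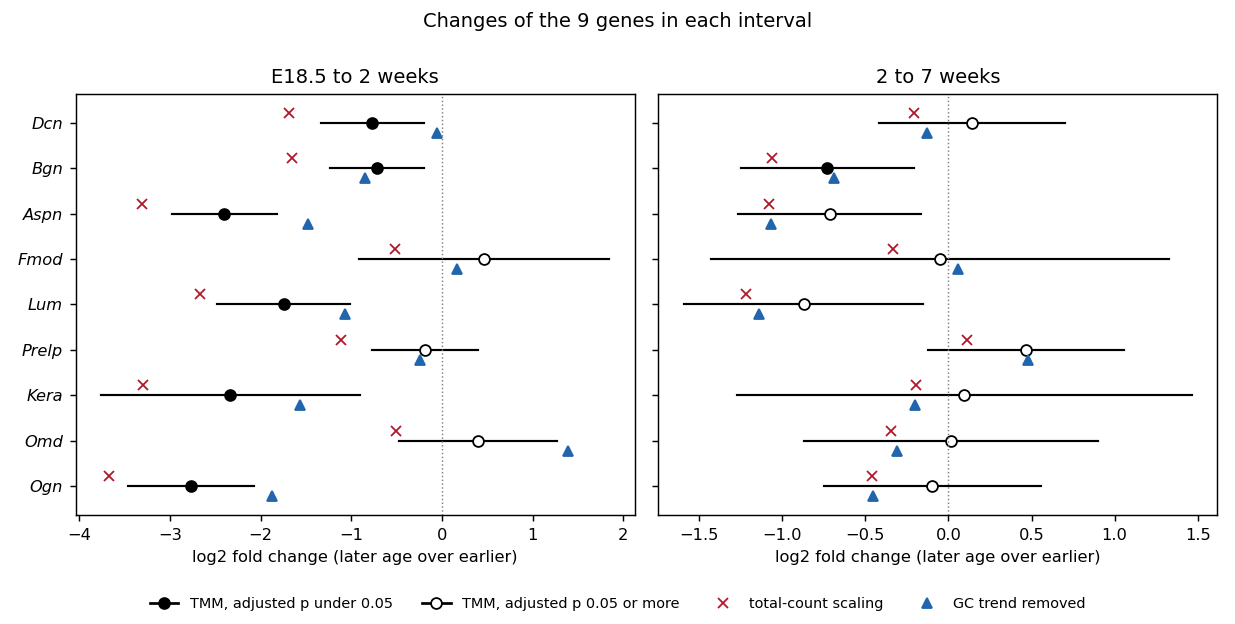
Log2 fold change of each gene with its 95% interval from E18.5 to 2 wks (left) and from 2 to 7 wks (right). Filled circles are called by edgeR, crosses give total-count scaling and triangles the fit with the GC trend removed. *Ogn* (-2.76) and *Aspn* (-2.40) lie farthest to the left in the first interval, and the triangle of *Dcn* (-0.05) lies near 0.

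Ratios of 2 genes within a library do not depend on library scaling, though they can depend on a GC trend where the genes differ in GC content, as *Bgn* and *Dcn* do. The ratio of *Bgn* to *Dcn* counts was tested. *Bgn* counts were 52.4, 73.9, 56.2 and 60.2% of *Dcn* counts at E18.5, 52.5, 53.1, 66.0 and 85.1% at 2 wks, then 31.0, 40.7, 34.6 and 34.0% at 7 wks. All libraries of 7 wks were below all others. The log2 ratio was -0.73 ± 0.21 at E18.5, -0.67 ± 0.33 at 2 wks, then -1.52 ± 0.16 at 7 wks (SD, n = 4). It differed by -0.85 between 2 and 7 wks (exact permutation test on both sides, p = 0.0286, adjusted over 3 comparisons 0.0429), and no lower p can be had with 4 libraries against 4. Between E18.5 and 7 wks it differed by -0.79 with the same p values. Between E18.5 and 2 wks it differed by 0.06 (exact p = 0.686). With the GC trend of each library removed from both genes, a fit added after the data were seen, the differences were -0.82 between E18.5 and 2 wks, -0.58 between 2 and 7 wks, and -1.40 over the whole span, each with an exact permutation p = 0.0286. So the direction and size of the difference between E18.5 and 2 wks depend on the GC treatment.

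The other ratios were picked after their values were seen and are given without a test. *Lum* counts were 41.7 to 54.6% of *Dcn* counts at E18.5, 23.3 to 24.6% at 2 wks, then 8.33 to 13.4% at 7 wks. These neighbours differ little in GC content, their ratio separated all 3 ages, and the 4 libraries of 2 wks varied by 0.662 percentage points (SD). *Omd* counts went from 0.185 to 0.347% of *Ogn* counts at E18.5 to between 1.76 and 2.96% at 2 wks, then between 2.12 and 2.86% at 7 wks. The transcripts of this pair also have close GC contents, and every later library was above every E18.5 library. *Ogn* and *Aspn* stayed in closer proportion, with *Ogn* at 71.0 to 89.2% of *Aspn* at E18.5, 62.0 to 71.4% at 2 wks, then 77.0 to 129% at 7 wks. *Prelp* counts were 5.20 to 16.2% of *Bgn* counts at E18.5, 10.95 to 17.4% at 2 wks, then 23.5 to 36.3% at 7 wks.

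*Kera* and *Fmod*, each scattered within an age, kept a narrow ratio to one another at 2 and 7 wks. *Kera* counts were 66.1 to 170% of *Fmod* counts at E18.5, but 12.9 to 19.3% at 2 wks, then 13.4 to 17.8% at 7 wks. Against *Tnmd* (tenomodulin, a membrane protein of tendon cells), *Kera* was at 45.8 to 70.7%, 59.3 to 82.0% and 89.0 to 112% at the 3 ages. *Fmod* was at 41.6 to 101% of *Tnmd* at E18.5, 426 to 460% at 2 wks, then 545 to 693% at 7 wks. *Tnmd* itself fell to 2 wks (-2.37). Against *Thbs4* (thrombospondin 4, a matrix protein of tendon), *Fmod* was at 50.4 to 90.3%, 55.3 to 156% and 25.0 to 70.9% at the 3 ages, which overlapped. *Kera* was at 44.5 to 152% of *Thbs4* at E18.5, 7.14 to 27.8% at 2 wks, then 4.23 to 11.5% at 7 wks. *Kera* and *Fmod* differ in GC content, and with the GC trend removed their log2 changes to 2 wks were -1.56 and 0.17. Which of these genes changed per cell cannot be told from a ratio.

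**Figure D4:**
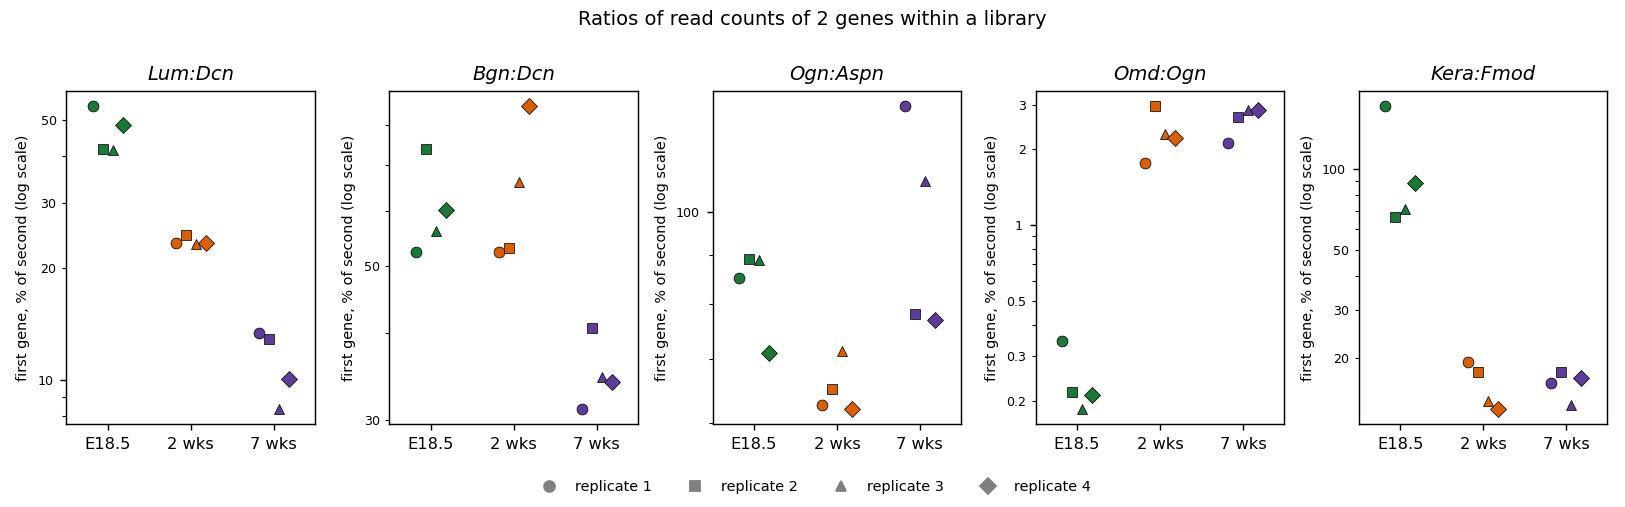
Counts of the first gene as a percent of those of the second in each library, by age, on log axes with a scale of their own in each panel. *Lum*:*Dcn* is lower at each later age (41.7 to 54.6%, 23.3 to 24.6%, 8.33 to 13.4%), *Kera*:*Fmod* is lower and *Omd*:*Ogn* higher at both later ages than at E18.5, and *Bgn*:*Dcn*, drawn without removing a GC trend, is lowest at 7 wks.

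The scatter of *Fmod* and *Kera* went with tendon markers. The summed level of 7 tendon markers (*Scx*, *Mkx*, *Tnmd*, *Thbs4*, *Comp*, *Cilp2* and *Ptx4*) was 251, 243, 105 and 99.4 CPM in the libraries of E18.5, 32.2, 35.5, 224 and 273 at 2 wks, then 308, 137, 191 and 125 at 7 wks. Libraries high in these markers were high in *Fmod* and *Kera* at each age. Of deviations from the age mean on the log2 scale, the correlation with the marker sum was 0.91 for *Fmod* and 0.85 for *Kera*, and 0.93 between the 2 genes. From E18.5 to 2 wks 1 of the 7 tendon markers rose (*Cilp2*, a cartilage intermediate layer protein, 3.25) and 2 fell (*Tnmd* and *Mkx*, a tendon transcription factor, -1.78), against 0 and 1 with the GC trend removed. The part of these cells in the changes of *Fmod* and *Kera* was not tested. Correlations here and below are over 12 libraries and describe points that share library, depth and age.

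Fibroblast markers went with another set of the genes. The summed level of 8 fibroblast markers ran from 801 to 1055 CPM at E18.5, from 769 to 1078 at 2 wks, then from 329 to 601 at 7 wks. The first 2 ages overlapped on this scale, but with total counts the sums were 1302 to 1741 CPM at E18.5 and 623 to 1020 at 2 wks, without overlap. To 2 wks 2 of the 8 markers rose and 2 fell, against 0 and 6 with total counts, and against 2 and 1 with the GC trend removed. The collagen gene *Col15a1* averaged 144 CPM at E18.5 and 372 at 2 wks, while *Pdgfra*, a receptor of fibroblasts and their progenitors, averaged 140 and 34.8, and *Dpt* (dermatopontin) 161 and 77.5. *Pi16* was the other marker that rose. The largest parts of the sum at 2 wks were *Col15a1* and *Cd34*, the latter with means of 225 CPM at E18.5 and 241 at 2 wks. From 2 to 7 wks 4 of the 8 markers fell, against 7 with total counts, and the sums no longer overlapped. Within ages the marker sum correlated with *Lum* (0.91), *Dcn* (0.89) and *Ogn* (0.82), and less with *Prelp* (0.34) and *Fmod* (0.34). Its part in the values was not tested. One marker on this list, *Tcf4*, is widely expressed and marks fibroblasts poorly.

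Other tissue in the samples also varied. Cartilage and bone markers summed to 62.6, 154, 27.2 and 24.8 CPM in the E18.5 libraries, to 5.10 to 23.5 at 2 wks, then to 3.75 to 7.36 at 7 wks, and 4 of the 6 tested fell from E18.5 to 2 wks while *Bglap* (osteocalcin, made by bone cells) rose by 5.30 (adjusted p = 0.00174, edgeR), from 0.158 ± 0.0715 to 6.27 ± 7.35 CPM (SD, n = 4). *Matn1*, a defining cartilage gene, had no count in any library of 2 or 7 wks. Adipocyte markers summed to 232, 179, 1938 and 2658 CPM at E18.5, against 421 to 485 at 2 wks, and 5 of 6 fell in the test. Nearly all of the sum at 2 wks was *Fabp4* (mean 442 CPM), which was not called, while *Adipoq* averaged 103 CPM at E18.5 and 1.60 at 2 wks. The sums of the 2 ages therefore do not compare like with like. Epidermis markers summed to 6.46 to 54.7 CPM at E18.5 and to 10.5 to 13.4 at 2 wks, and 3 of 5 tested fell, while with the GC trend removed 1 was higher and 3 lower. Replicates 1 and 2 of E18.5, low in fat markers, were those with the most *Kera*, *Fmod* and *Dcn*. The part of these tissues in the falls of the SLRP genes was not tested.

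**Figure D5:**
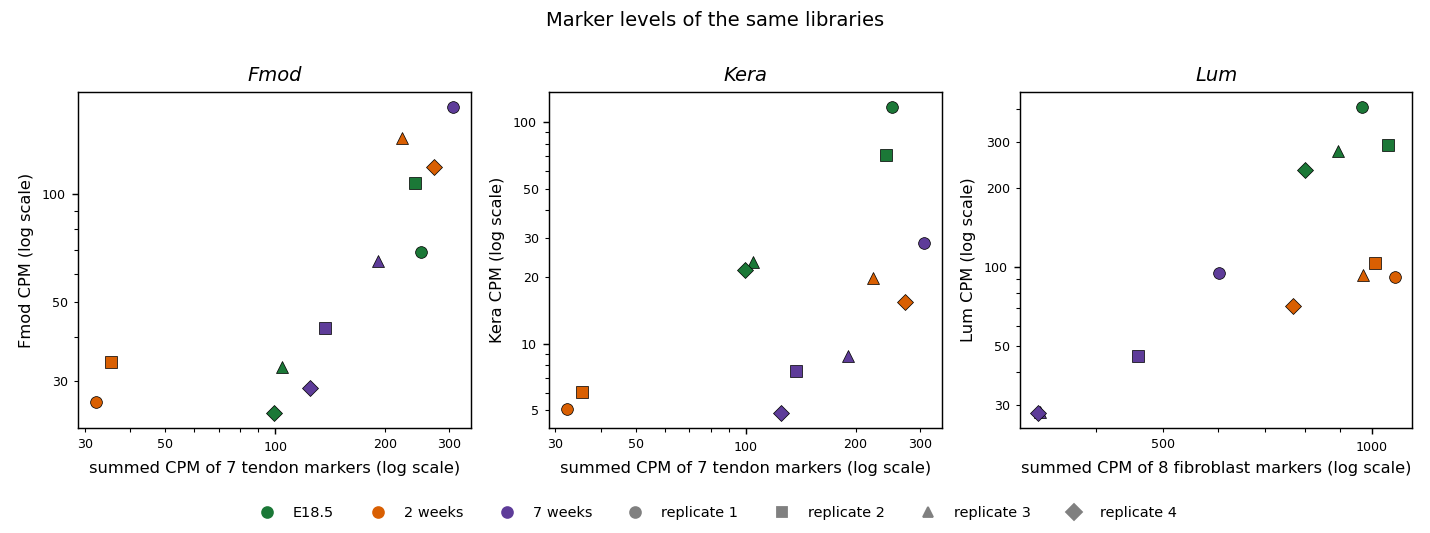
Level of *Fmod* and *Kera* against the summed CPM of 7 tendon markers, and of *Lum* against that of 8 fibroblast markers, in each library on log axes (color: age, symbol: replicate). *Kera* of E18.5 lies above that of the later ages at a like summed level, though the make-up of that sum changed with age. *Lum* of E18.5 and of 2 wks lies at different heights over the same range of summed fibroblast markers. The largest parts of that sum at 2 wks are *Col15a1* (mean 372 CPM) and *Cd34* (241), and of the 8 markers 2 rose and 2 fell from E18.5 to 2 wks.

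Correlations among the 9 genes were taken within ages as well. *Dcn* and *Lum* correlated at 0.94, *Lum* and *Ogn* at 0.92, *Dcn* and *Ogn* at 0.88, *Aspn* and *Ogn* at 0.87, and *Omd* and *Ogn* at 0.85. *Fmod* was at 0.93 with *Kera*, at 0.83 with *Bgn* and at -0.02 with *Aspn*. Neighbours on a chromosome were not always the closest, since *Dcn* was at 0.62 with *Kera* but at 0.80 with *Bgn*, which lies on another chromosome. *Dcn* was at 0.58 with *Aspn* and at 0.65 with *Omd*, and *Bgn* was at 0.75 with *Lum*. *Prelp* was at most 0.40 with any other member, namely with *Dcn*.

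Over all 12 libraries, the gene outside the family most like each member was sought among 8940 genes of moderate or high level. For *Kera* it was *Tnmd* (Pearson's r = 0.98), ahead of *Kcnn3* (0.93) and the fibrillar collagen *Col11a1* (0.92). For *Bgn* they were the collagen genes *Col6a3* (0.98) and *Col1a2* (0.97), then *Aldh18a1* (0.97), an enzyme of proline synthesis. *Dcn* was nearest to *Timp2*, an inhibitor of matrix metalloproteinases, and *Lama2*, the laminin chain of the muscle basement membrane (both 0.92). *Lum* was nearest to *Colec12* and *Flrt2* (both 0.99), *Aspn* to *Pafah1b2* (0.996) and *Rbms3* (0.995), and *Ogn* to *Cask* (0.99). *Fmod* had no close match, the highest being *Nfatc2* at 0.80, and for *Prelp* it was *Naa40* at 0.88. For *Omd*, with few counts, it was *Ube2n* at 0.98.

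Of 9 further SLRP family genes, 3 rose and 3 fell from E18.5 to 2 wks, with a median log2 change of 0.09. *Chad* (chondroadherin, a cartilage and tendon protein without chains) rose by 3.51 (SE 1.08), *Podn* (podocan) by 1.92 (SE 0.26) and *Ecm2*, which precedes *Aspn* on chromosome 13, by 0.93 (SE 0.24). *Chad* varied widely within an age and went from 0.404 ± 0.418 CPM to 4.60 ± 4.48, while *Podn* went from 4.00 ± 1.76 CPM to 15.1 ± 0.827 (SD, n = 4). *Ecm2* lost its call with total counts, where its change was 0.03 and the list had 2 higher and 4 lower. *Epyc* (epiphycan, next to *Kera*) changed by -3.40 (SE 0.61), *Tsku* (tsukushi) by -1.63 (SE 0.35) and *Optc* (opticin, next to *Prelp*) by -1.58 (SE 0.35), of which *Epyc* had a mean of 1.02 CPM at E18.5 and *Optc* one of 0.418. From 2 to 7 wks 1 of the 9 was called, *Tsku*, with a further change of -1.45 (SE 0.36, adjusted p = 0.0102, edgeR).

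The enzymes that build the sulfated chains were taken in 3 lists. Of 7 genes for the linker that joins a chain to its core, 3 rose and 2 fell to 2 wks (median -0.08), among the latter *Pxylp1*, a xylose phosphatase, with -1.16 (SE 0.26). With total counts 0 were higher and 4 lower, with upper-quartile scaling 2 and 3, and with the GC trend removed 1 and 1. Of 16 genes of chondroitin and dermatan sulfate synthesis, 4 rose and 8 fell, with a median of -0.71, against 2 higher and 11 lower with total counts. Both epimerases that turn chondroitin into dermatan sulfate fell, with log2 changes of -2.52 (SE 0.29) for *Dse* and -2.16 (SE 0.30) for *Dsel*, as did the chain polymerase gene *Chsy3* with -2.85 (SE 0.33). *Dse* had 37.4 ± 4.67 CPM at E18.5, 6.52 ± 1.47 at 2 wks, then 4.13 ± 2.11 at 7 wks (SD, n = 4). The sulfotransferase genes *Chst13* (2.33, SE 0.59) and *Chst7* (1.94, SE 0.21) rose and then fell from 2 to 7 wks (-4.12, SE 0.80, and -1.20, SE 0.20), *Chst13* with a mean of 0.384 CPM at its highest. Of 6 tested genes of keratan sulfate synthesis, 4 fell and 0 rose (median -0.78), with *Chst5* at -4.04 (SE 0.65) and *B3gnt7* at -3.37 (SE 0.65), with means of 0.965 and 0.348 CPM at E18.5, their highest.

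Collagens, which SLRPs bind, moved in both intervals. Of 11 fibrillar and associated collagen genes, 7 fell and 0 rose to 2 wks (median -0.94), and 9 fell and 0 rose from 2 to 7 wks (median -1.41). The fibril-associated *Col12a1* and *Col14a1* changed most in the first interval, by -4.20 (SE 0.61) and -2.73 (SE 0.46). *Col1a1*, the main chain of type I collagen, measured 1256 ± 788 CPM at E18.5, 1334 ± 234 at 2 wks, then 290 ± 253 at 7 wks (SD, n = 4). It was called only in the second interval (-2.20, SE 0.51, adjusted p = 0.00673, edgeR), the interval in which 8 of the 9 SLRP genes were not called. Of these, *Aspn* and *Lum* lay just outside the threshold (adjusted p = 0.0527 and 0.0681, edgeR). Both were called lower with total counts, upper-quartile scaling, DESeq2, the replicate block or the GC trend removed. The median over the 9 SLRP genes was -0.77 and -0.05 in the 2 intervals.

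The BMP1 proteinase, which trims the propeptides of biglycan and osteoglycin, and its relatives and enhancers were 5 genes. To 2 wks 2 rose and 1 fell with a median of 0.48 (*Tll1*, -1.21, SE 0.30), and no gene of the list was higher with total counts (2 lower) or upper-quartile scaling (1 lower), while the GC trend removed left 1 higher and 1 lower. From 2 to 7 wks 2 fell, *Bmp1* itself (-1.30, SE 0.29) and the enhancer *Pcolce* (-1.56, SE 0.32). Of 10 TGF-β family ligands and receptors, 2 rose and 4 fell to 2 wks (median -0.34), and 3 rose and 2 fell from 2 to 7 wks. With total counts these were 1 higher and 7 lower, then 1 higher and 3 lower, and with the GC trend removed 3 higher and 2 lower, then 4 higher and 2 lower. *Tgfb1*, a ligand bound by decorin and biglycan, measured 2.70 ± 0.83 CPM at E18.5, 9.57 ± 0.449 at 2 wks, then 3.59 ± 1.67 at 7 wks (SD, n = 4). It rose by 1.82 (SE 0.30) and fell by 1.41 (SE 0.30) on the log2 scale. *Mstn* (myostatin), which limits muscle growth and is also bound by decorin, went the other way, by -1.03 (SE 0.26) and 1.01 (SE 0.26), of which the first call was lost with the GC trend removed (-0.20) and the second with total counts (0.66, adjusted p = 0.0757, edgeR).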

How the data were processed

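RNA from TA muscle of 12 WT mice, 4 per age, was sequenced by the study from stranded, polyA-selected libraries as paired reads of 100 bases. The deposited table holds raw gene counts, made by the authors with STAR 2.5.3a and HTSeq 0.6.1p1 after bcl2fastq 2.17.1.14 and cutadapt 1.10, per the submitters' processing notes. Those notes name mm10 and the study's methods name a newer mouse build, so positions are given on GRCm38.p6, the assembly of mm10, from RefSeq. Symbols, transcript lengths and GC content came from GENCODE M39, which held 51477 of 55450 identifiers, and 3973 were not matched. Counts were fitted with edgeR 4.0.16 in R 4.3.3, with filterByExpr, TMM factors, age as the only term, glmQLFit and glmQLFTest, and Benjamini-Hochberg adjustment over all 19276 genes, at a threshold of 0.05. CPM in the text uses TMM library sizes. The GC alternative removed a smooth trend of log2 level on transcript GC from each library. DESeq2 1.42.0, other scalings and filters, the replicate number as a block and leaving out each library were the other alternatives. The *Bgn* to *Dcn* ratio was compared by a two-sided exact permutation test, also with the GC trend removed, which was added once the data had been seen. Fits were tested on simulated counts. Named genes are the 9 members, genes of the lists (up to 3 rises and 3 falls among those called to 2 wks may be singled out, others only for a role stated in the text, such as *Col1a1* and *Bmp1*, which were chosen after their values were seen), and the 3 genes nearest each member by Pearson's r. Members and lists were chosen with earlier results of these data known. The number of libraries and their depth limit precision, and the p-values judge differences between ages against the spread between mice of an age.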

Additional observations from a re-analysis of the deposited data

Results flagged for a closer look

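Each of 30 sets of 4 libraries, for the 9 genes and the *Bgn* to *Dcn* ratio at 3 ages, was examined for a library far from the other 3, and 4 sets had one. Independent sets of normal values would give about 1.5. These sets share libraries and the genes correlate within ages, so no excess can be read from that number. *Aspn* at E18.5 was 493 CPM in replicate 1 and 258 to 286 in the others. *Omd* at E18.5 was 1.46 CPM in the same library and 0.424 to 0.521 in the others, and without that library its rise to 2 wks passed the test. *Kera* at 7 wks was 28.4 CPM in replicate 1 and 4.85 to 8.76 in the others. *Ogn* at 7 wks was 65.3 CPM in the same library and 25.9 to 32.5 in the others. That library also had the highest summed tendon and fibroblast markers of its age (308 and 601 CPM), and the part of those cells in its values was not tested.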

How the results depend on the processing

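Over the 9 genes and 4 comparisons, 36 values were recomputed under the alternatives that kept all libraries, which gave 315 values, of which 265 kept their direction and side of the threshold, 3 lost their call, 19 gained one and 28 changed sign, 1 of them called. Members called from 2 to 7 wks, 1 as reported, numbered 3 with total counts, upper-quartile scaling, DESeq2, the replicate block or the GC trend removed, 2 with no filter, with at least 10 counts in every library or with the 8 libraries compared, 0 with a change beyond a log2 of 1, and 0 to 3 with a library left out. The share of all genes called is not given for every setting, so these counts do not show whether the 9 genes stand out. For the difference of the 2 changes the members called numbered 4 with total counts and 1 beyond a log2 of 1. All genes called beyond that change were 5507, 561, 7574 and 2463 in the 4 comparisons, against 12668, 5296, 13755 and 7398, and 3472 to 6145 from 2 to 7 wks with a library left out, the lowest without replicate 1 of 2 wks. With total counts the log2 change to 2 wks was -0.52 for *Fmod* and -0.50 for *Omd*, that from 2 to 7 wks -0.21 for *Dcn*, -0.20 for *Kera* and -0.34 for *Omd*, that from E18.5 to 7 wks -0.85 for *Fmod*, -1.004 for *Prelp* (adjusted p = 0.00519, edgeR) and -0.85 for *Omd*, and the difference -0.59 for *Bgn*, -0.19 for *Fmod* and -0.16 for *Omd*. From 2 to 7 wks *Omd* was at -0.10 with upper-quartile scaling, -0.031 with at least 10 counts, -0.028 with the 8 libraries, -0.042 with the block and -0.31 with the GC trend removed. *Kera* was at -0.0035 with upper-quartile scaling, -0.38 with the block and -0.20 with the GC trend removed, which also gave -0.13 for *Dcn* and 0.060 for *Fmod*. The difference for *Bgn* was -0.021 with upper-quartile scaling, -0.032 with DESeq2, -0.028 with no filter, -0.069 with at least 10 counts and -0.16 with the GC trend removed, which gave 0.078 for *Dcn* and 0.073 for *Lum*. The cause of these shifts was not tested. With 1 library left out, changes from 2 to 7 wks ran from -0.23 to 0.30 for *Dcn*, -0.83 to 0.38 for *Fmod*, -0.71 to 0.49 for *Kera*, -0.22 to 0.23 for *Omd* and -0.50 to 0.044 for *Ogn*, each lowest without replicate 1 of 7 wks. Those from E18.5 to 7 wks ran from -0.36 to 0.89 for *Fmod* and -0.017 to 0.42 for *Prelp*. Differences ran from -0.14 to 0.30 for *Bgn*, -0.34 to 1.30 for *Fmod* and -0.034 to 0.9999 for *Omd*, and the *Bgn* to *Dcn* log2 ratio between E18.5 and 2 wks differed by -0.081 to 0.16. With the GC trend removed, a setting added once the data had been seen, that ratio differed by -0.82 between E18.5 and 2 wks.

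The replicate numbers were not treated as pairs in the main fit. Deviations of libraries with the same number correlated between -0.28 and 0.51, over 0.1 in 5 of 12 pairs. Those with different numbers correlated between -0.50 and 0.38, over 0.1 in 10 of 36 pairs. These values cannot tell whether a number stands for anything shared between ages. With the number as a block the *Bgn* to *Dcn* ratio kept its differences of -0.85 and -0.79, and an exact sign-flip test of 4 pairs gave p = 0.125, its smallest. Depth limits the list genes near 0 CPM, and 4 libraries per age limit *Fmod* and *Kera*.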
